A study of Mus musculus with 16 samples.

Results

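The effect of a CXCR2 inhibitor on mouse hepatocytes kept with cancer cells was measured by RNA sequencing in 6 of the 16 libraries of the series. All 6 came from hepatocytes co-cultured with cancer cells that are wild type (WT) for Phgdh, whose enzyme commits a glycolytic intermediate to serine. No inhibitor is named in the labels of 3 libraries (WT replicates 1 to 3), and a CXCR2 inhibitor is added in the other 3 (WT with inhibitor, replicates 1 to 3). The members are all genes of the deposited table, of which 11395 of 54532 reached a mean of 1 FPKM over the 16 libraries and were tested. FPKM scales the sequenced fragments of a gene to its length and to the depth of its library. Every library is labelled as mouse hepatocytes, given as a cell line. The cancer cells are pancreatic by the title of the series and HY19636 by its design text, which names them rather than the hepatocytes as the sequenced material. The labels were followed here. They give no name or dose of the inhibitor, no vehicle, duration, culture format, separation of the cell types or batch. There were no hepatocytes with the inhibitor and without cancer cells among the samples. Hepatocytes alone (n = 3), co-cultures with Phgdh knockout (KO) cancer cells (n = 3) and the same with the inhibitor (n = 4) served as reference. The labels do not say whether replicates were grown separately, so the p-values measure a spread between libraries that may be technical.

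CXCR2 is a G protein-coupled receptor for the chemokines that carry an ELR motif, among them Cxcl1, Cxcl2 and Cxcl5, and it can also be bound by the cytokine Mif. It is best known on neutrophils, which it draws into inflamed or tumour-bearing tissue. Its ligands are typical NF-kB target genes in hepatocytes and many epithelial cells. A CXCR2 inhibitor acts on the receptor, and the ligand genes are not its direct target.

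Depth was similar in both groups. Recovered fragments were 16.2 to 20.9 M per library without and 15.0019 to 17.1 M with the inhibitor. A single fragment in a gene of 1 kb was worth 0.0477 to 0.0621 FPKM without and 0.0569 to 0.0648 FPKM with it, a limit of counting alone. The first principal component of the 6 libraries held 85.1% of the variance and separated the groups, and WT replicate 1 stood apart from its group on the second (7.04%). WT replicate 1 differed from its replicates by 17.5 and 20.9 in chi-square per degree of freedom, against 4.37 between WT replicates 2 and 3. Mitochondrially encoded genes took 3.49% to 4.57% of fragments without and 1.86% to 2.11% with the inhibitor.

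Further features separated all libraries with the inhibitor from all libraries without it. The median log2 difference of the genes of a chromosome between inhibitor and none in WT co-culture was -0.34 on chromosome 11, -0.28 on chromosome 19, -0.21 on chromosome 12, 0.19 on chromosome 4, 0.18 on chromosome 16 and 0.23 on chromosome 17. Over the autosomes and X it ranged from -0.34 to 0.23 in WT and from -0.32 to 0.24 in KO co-culture. Between WT co-culture and hepatocytes alone, both without the inhibitor, it ranged from -0.08 to 0.05. The summed fragments of 4 Y-linked genes (Ddx3y, Eif2s3y, Uty and Kdm5d) were 14 to 42 in hepatocytes alone, 18 to 57 in WT and 22 to 50 in KO co-culture. They came to 0 to 5 in WT and 0 to 3 in KO libraries that had received it. What else differed between these cultures and the inhibitor itself cannot be told apart in this design. Each call was therefore also computed after the median of each autosome and of X had been set to 0 (per-chromosome centring, chosen after seeing the data). Genes elsewhere, the mitochondrially encoded ones among them, were not centred. Centring removes only a shift shared by the genes of a chromosome. It cannot remove differences of single genes between the cultures, so a call kept after it may still reflect them.

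**Figure D1:**
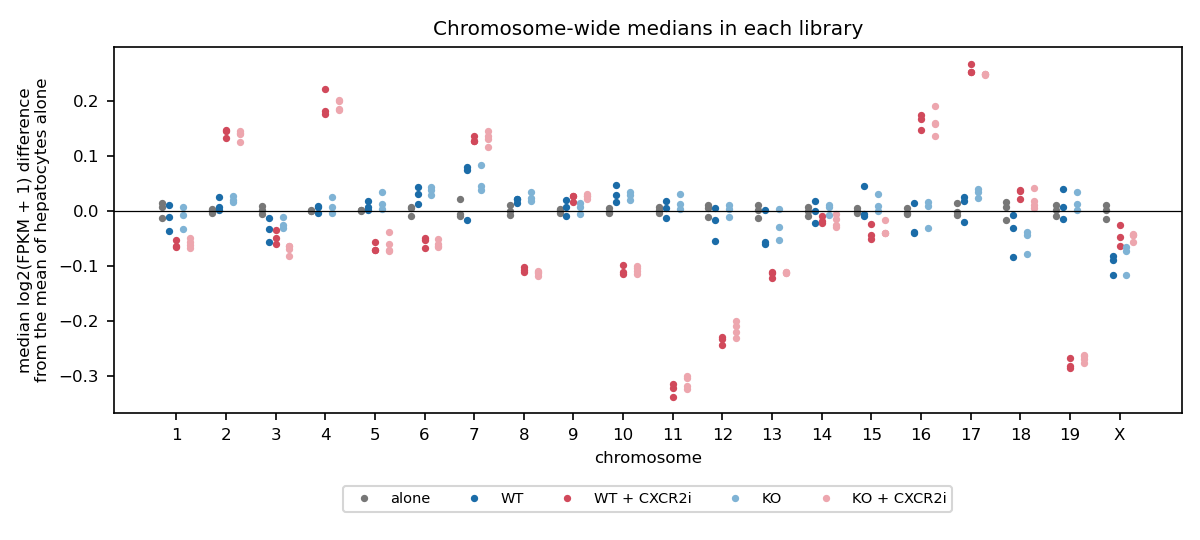
Median difference in log2(FPKM + 1) of the tested genes of each chromosome from the mean of hepatocytes alone (y axis), by chromosome (x axis), with 1 point per library, coloured by group (WT and KO are the genotypes of the cancer cells, CXCR2i the inhibitor). The libraries with the inhibitor lie together and away from the others on chromosomes 11, 12, 17, 19, 4 and 16.

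With the inhibitor, 3821 of the 11395 tested genes were higher (33.5%) and 3763 were lower (33.0%), so that 66.6% of all tested genes passed an adjusted p of 0.05 in limma. The median log2 change over all tested genes was -0.01. Every count of list members in what follows stands beside these shares of 33.5% higher and 33.0% lower. All changes are differences of log2(FPKM + 1), which understates the change of genes at low levels. The sign ± marks the SE of such a change or the SD of a level in FPKM (n = 3). Changes of at least 2-fold were higher in 865 genes (7.59%) and lower in 329 (2.89%). The libraries of both groups did not overlap in 66.5% of the tested genes, in 3823 on the higher side (33.5%) and in 3754 on the lower (32.9%). With per-chromosome centring 7287 genes passed, 6332 of them in the same direction as before and 38 in the opposite one. In bulk RNA, fewer cells of a type and less RNA per cell cannot be told apart.

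**Figure D2:**
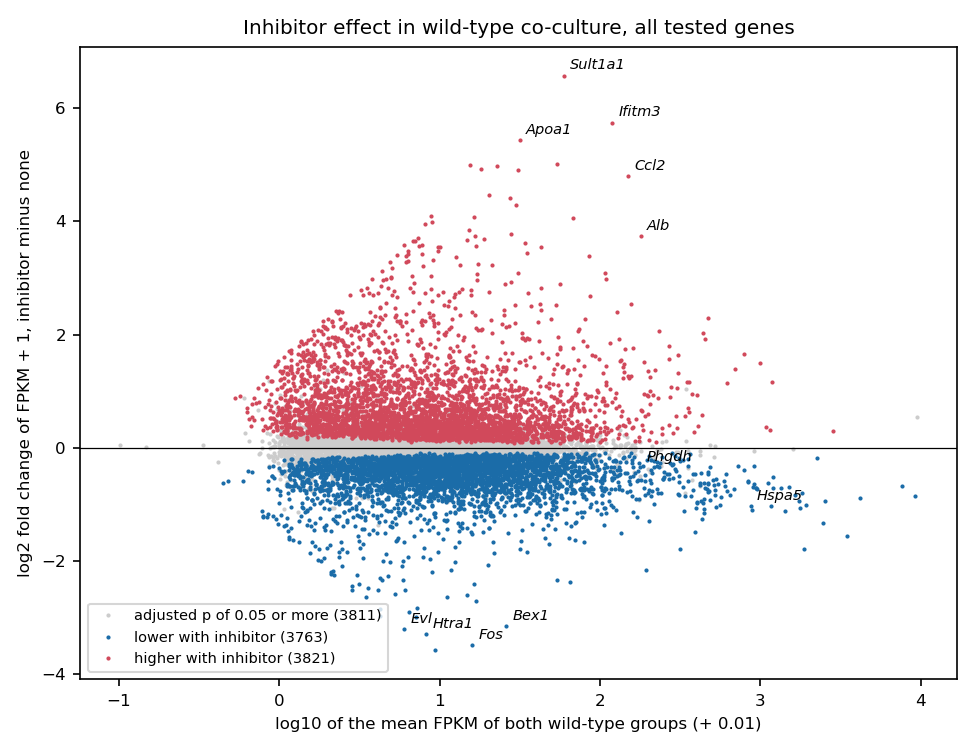
Each point is 1 of the 11395 tested genes, with its mean FPKM over both WT groups as log10 on the x axis and the log2 fold change of FPKM + 1 between inhibitor and none on the y axis. Genes past the threshold are red (3821 higher) or blue (3763 lower). Sult1a1 has the largest rise, and Fos, Htra1, Evl and Bex1 lie at the lower edge.

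The receptor was near or below detection. Cxcr2 had 2 fragments in WT with inhibitor replicate 1 and 0 in the other 5 libraries, and Cxcr1, the related receptor, had 0 in all 6. A count of 0 allows up to 3 fragments, so a low level was not detectable at this depth, and neither receptor was tested. Of 11 receptors and ligands of this axis, 7 were below the filter and the 4 tested ligands were higher, with a median change of 0.74. Wherever no tested member of a list fell, or none rose, in what follows, none did at an unadjusted p under 0.05 in limma either. Cxcl1 (chr5:90891241-90893115 in the GRCm38 coordinates of the deposited table), a main ELR chemokine, was at 2.38, 2.08 and 1.88 FPKM without and 8.49, 8.91 and 8.08 FPKM with the inhibitor. The groups did not overlap, and the change was 1.61 ± 0.10 (adjusted p = 3.18e-09, limma). Hepatocytes alone had a mean of 78.2 FPKM of Cxcl1, above both co-culture groups. Cxcl2, a close relative, was at 0, 0.102 and 0.138 FPKM without and 0.963, 0.833 and 1.32 FPKM with the inhibitor (0.91 ± 0.11), against 6.85 FPKM in hepatocytes alone. Cxcl5, named after its values were seen, rose from 1.57 to 2.62 FPKM (0.51 ± 0.11), where monoculture had 37.2 FPKM. Mif was abundant in every library and was at 304, 366 and 381 FPKM without and 519.6, 529 and 513 FPKM with the inhibitor (0.58 ± 0.07).

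Promoter sequence of Cxcl1 and Cxcl2 is shown because both rose and both hold matches to an NF-kB motif. The 250 bases before the RefSeq start (GRCm38.p6) are given 5′ to 3′ on the strand of the gene, from chr5:90890995-90891244 (plus strand) and chr5:90903649-90903898 (plus strand). Capitals mark matches to GGGNNTTTCC on either strand.
Cxcl1: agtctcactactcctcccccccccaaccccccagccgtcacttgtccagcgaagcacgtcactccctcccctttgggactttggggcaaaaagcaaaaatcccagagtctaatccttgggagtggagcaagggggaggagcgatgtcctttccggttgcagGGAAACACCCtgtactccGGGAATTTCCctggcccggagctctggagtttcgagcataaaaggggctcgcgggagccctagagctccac
Cxcl2: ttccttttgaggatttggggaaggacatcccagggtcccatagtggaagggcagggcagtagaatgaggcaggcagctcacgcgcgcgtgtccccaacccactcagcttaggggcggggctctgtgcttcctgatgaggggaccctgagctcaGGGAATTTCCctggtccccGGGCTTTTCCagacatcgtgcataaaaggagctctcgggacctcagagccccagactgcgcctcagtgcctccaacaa
In windows from 250 bases before to 50 after the start, the motif was present in 3 of the 10 genes of this axis with a window (30%), against 1.90% of 27025 genes. These genes were Cxcl1, Cxcl2 and Cxcl3, the last of them below the filter. Cxcl5 and Mif, which also rose, were not among those with the motif. It was in 5 of 20 genes of the NF-kB list (25%) and in 3 of 10 other chemokines (30%). These lists hold known NF-kB targets, so such shares do not test the pathway in these data. A match is a run of letters and not a proven site.

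Other chemokines moved the same way. Of 9 tested chemokine and colony-stimulating factor genes, 8 rose and none fell, with a median of 1.48, and without WT replicate 1 1 was lower, Il34. Ccl2 (chr11:82035571-82037453), which attracts monocytes, was at 8.73, 9.92 and 10.02 FPKM without and 288, 294 and 292 FPKM with the inhibitor. Its mean was 30.5-fold higher (4.79 ± 0.05, adjusted p = 2.26e-17, limma), with a wide gap between the groups, and was 878 FPKM in hepatocytes alone. Ccl7, a related monocyte chemokine, was at 0.0775, 0.198 and 0.357 FPKM without and 10.4, 8.61 and 10.7 FPKM with the inhibitor (3.17 ± 0.10). Cxcl10, an interferon-induced chemokine for T cells, was at 0.1103, 0.0937 and 0.0212 FPKM without and 3.56, 2.77 and 4.26 FPKM with it (2.06 ± 0.12), and at 0.488 FPKM in monoculture. Il34, a ligand of the receptor Csf1r, was at 6.06 ± 0.776 and 5.15 ± 0.419 FPKM and did not pass (adjusted p = 0.113, limma), and its exons overlap Gm15895.

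NF-kB feedback genes rose with them. Of 22 tested subunits and targets, 18 rose and 2 fell (median 0.59). Tnfaip3 (A20), which restrains the pathway, was at 2.14, 1.88 and 2.13 FPKM without and 13.2, 13.6 and 13.7 FPKM with the inhibitor (2.25 ± 0.05). Nfkbia, the inhibitor IkB-alpha, was at 8.76, 7.67 and 8.09 FPKM without and 41.9, 39.3 and 40.4 FPKM with it (2.18 ± 0.07). In both the inhibitor group lay between co-culture and monoculture, where means were 36.9 and 67.4 FPKM. The adhesion molecule Icam1 changed by 1.31 ± 0.05. The members that fell were the kinase gene Chuk (-0.77 ± 0.07) and the transcription factor Cebpd (-0.55 ± 0.11), whose exons overlap Spidr. Rela, the main activating subunit, was at 85.4 ± 1.86 FPKM without and 84.9 ± 2.82 FPKM with the inhibitor and did not pass.

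Interferon-stimulated genes had the largest median of the pathway lists. Of 40 members 39 were tested and 39 rose, 36 of them at least 2-fold, with a median of 2.23 against -0.01 for all genes. Ifitm3, which blocks virus entry at membranes, was at 3.02, 2.96 and 4.29 FPKM without and 242, 243 and 218 FPKM with the inhibitor. Its change was 5.74 ± 0.20 (adjusted p = 3.55e-12, limma), and its mean in hepatocytes alone was 7.75 FPKM. Ifit1, which binds foreign RNA, was at 1.52, 0.874 and 0.862 FPKM without and 62.4, 56.9 and 62.97 FPKM with the inhibitor (4.90 ± 0.10), and at 0.408 FPKM in monoculture. Isg15, a ubiquitin-like modifier, was at 1.396, 2.58 and 2.15 FPKM without and 63.4, 61.9 and 49.2 FPKM with it (4.29 ± 0.15), and at 2.11 FPKM in monoculture. In these genes the libraries with the inhibitor stood above all others compared. Outside the list, Trim30a (4.92 ± 0.09), Apol9b (4.47 ± 0.15) and Apol9a (4.10 ± 0.06) were among the 12 largest rises of coding genes. Apol9a and Apol9b are near-identical copies, as are several Ifit and Oas genes, so reads may be split between them. After per-chromosome centring 39 members were higher, and without WT replicate 1 39.

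The promoters of Ifit1 and Isg15 are printed as examples of the 15 members with a match to the interferon-stimulated response element. The 250 bases before the RefSeq start (GRCm38.p6) come from chr19:34640639-34640888 (plus strand) and chr4:156200819-156201068 (minus strand). Capitals mark matches to TTTCNNTTTC on either strand, and matches that overlap run together.
Ifit1: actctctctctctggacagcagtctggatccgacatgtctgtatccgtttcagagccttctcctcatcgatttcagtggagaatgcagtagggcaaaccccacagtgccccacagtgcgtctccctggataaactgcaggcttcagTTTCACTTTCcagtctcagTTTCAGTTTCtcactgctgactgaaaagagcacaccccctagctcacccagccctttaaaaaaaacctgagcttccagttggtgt
Isg15: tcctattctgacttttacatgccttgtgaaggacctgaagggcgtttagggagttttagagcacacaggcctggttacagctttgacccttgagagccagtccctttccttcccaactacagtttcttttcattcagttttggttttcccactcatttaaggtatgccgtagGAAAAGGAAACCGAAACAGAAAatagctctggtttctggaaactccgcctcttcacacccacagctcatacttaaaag
In windows of the same length as above, 15 of 30 members held this motif (50%), against 3.99% of 27025 genes. The list was assembled from known interferon-induced genes, so this excess was to be found whatever these data show. No match in another member says only that these letters are not in its window.

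Plasma proteins made by the liver rose. Of 19 tested secreted plasma protein genes, 15 rose and 2 fell, with a median of 1.95. Alb, serum albumin, was at 27.2, 22.5 and 23.02 FPKM without and 343, 323 and 338 FPKM with the inhibitor. The groups were far apart (3.74 ± 0.06, adjusted p = 1.66e-15, limma), and hepatocytes alone lay in between at 57.1 FPKM. Ahsg, the carrier protein fetuin-A, was at 1.498, 1.32 and 1.78 FPKM without and 55.1, 51.02 and 53.1 FPKM with the inhibitor (4.42 ± 0.08). Rbp4, the retinol carrier, fell from 519.7, 587 and 606 FPKM to 359, 390.2 and 362 FPKM (-0.62 ± 0.06), and Igfbp4 fell by 0.22 on the log2 scale. The Igfbp4 call was lost after per-chromosome centring, with a value of 0.098. Of 10 tested apolipoprotein genes, 7 rose and 1 fell. Apoa1, the main protein of high-density lipoprotein, was at 0.151, 0.598 and 0.734 FPKM without and 60.4, 66.2 and 60.8 FPKM with the inhibitor (5.43 ± 0.17). Angptl6, a secreted angiopoietin-like factor, fell from 28.4 to 4.52 FPKM (-2.41 ± 0.14), and its exons overlap A230050P20Rik.

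Acute phase genes, which the liver turns on in inflammation, rose in 15 of 17 tested members and fell in 1 (median 1.83). Hp, the haemoglobin scavenger haptoglobin, was at 2.63, 1.51 and 1.49 FPKM without and 34.3, 35.9 and 36.9 FPKM with the inhibitor (3.70 ± 0.12). Fibrinogen chains moved together, with Fga at 3.55 ± 0.09 and Fgb at 3.03 ± 0.07. Lcn2 fell by 0.18 on the log2 scale (adjusted p = 0.0104, limma), a call lost without WT with inhibitor replicate 1 and in the fit of the 6 libraries alone. Apcs, serum amyloid P, was at 17.9 ± 1.900 and 15.7 ± 1.43 FPKM and did not pass (adjusted p = 0.268, limma). Of 21 tested complement and coagulation genes, 17 rose and 2 fell (median 1.03). F3, tissue factor, was at 3.15, 2.96 and 2.55 FPKM without and 51.7, 51.2 and 54.5 FPKM with it (3.79 ± 0.06). C1s1, a protease of the classical complement pathway, changed by 3.71 ± 0.07. The anticoagulant Pros1 fell by 0.58 on the log2 scale.

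**Figure D3:**
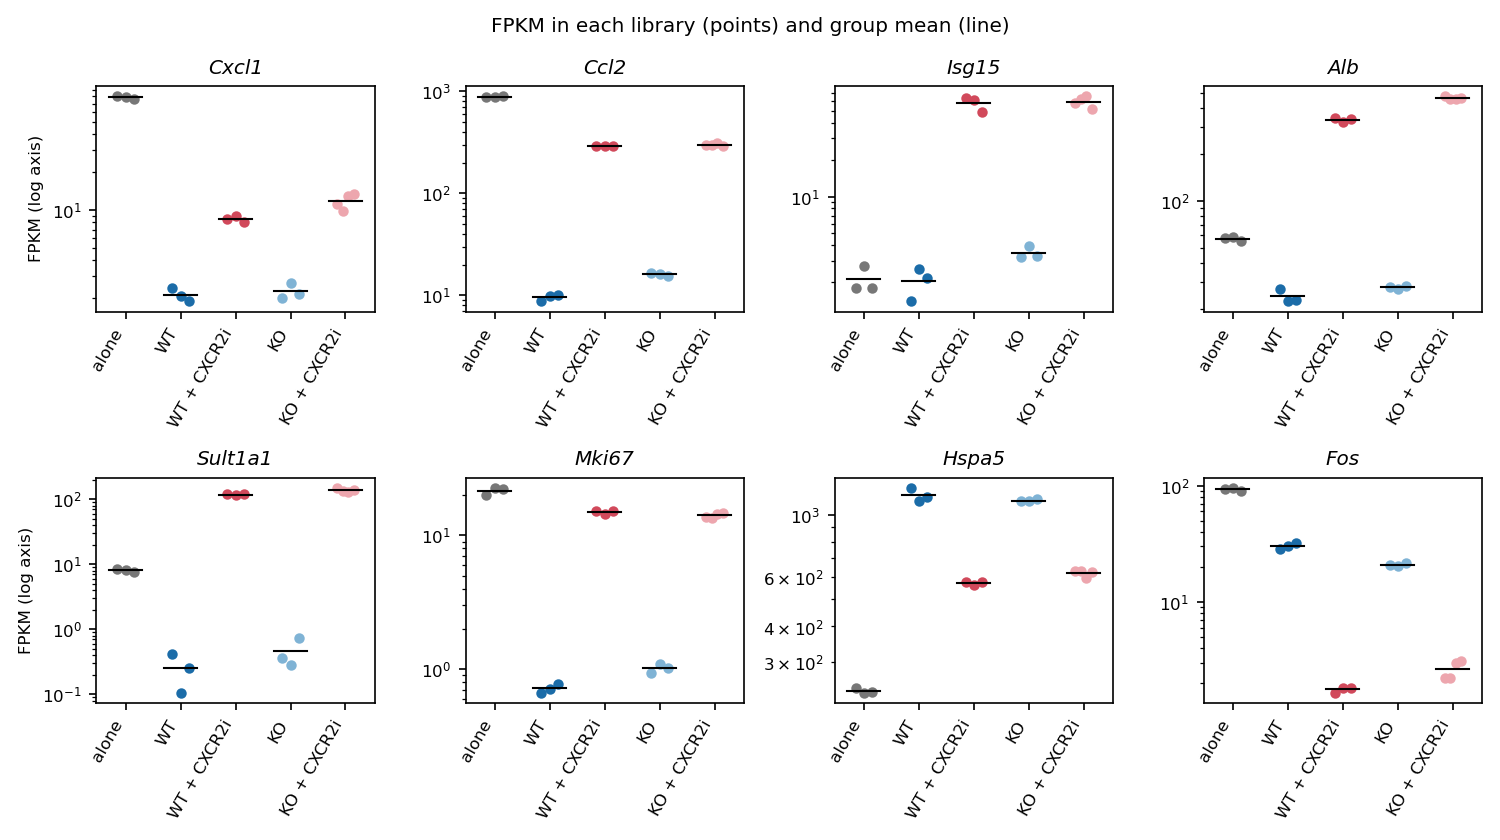
FPKM on a log axis (y) in each library (points) and the mean of each group (line) for 8 genes. Groups on the x axis are hepatocytes alone, WT and KO co-cultures, and each with the CXCR2 inhibitor. In Cxcl1, Ccl2 and Mki67 the WT libraries with the inhibitor lie between WT and monoculture, and in Isg15, Alb and Sult1a1 above the WT and monoculture libraries.

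Hepatocyte regulators rose in part. Of 25 tested transcription factors and nuclear receptors, 14 rose, 3 fell and 8 did not pass (median 0.46). Nr0b2 (SHP), a corepressor induced by bile acids, was at 0.219, 0.2796 and 0 FPKM without and 3.67, 5.41 and 4.81 FPKM with the inhibitor (2.27 ± 0.13). The bile acid receptor Nr1h4 (FXR) was at 13.1, 12.2 and 13.6 FPKM without and 50.4, 54.9 and 52.5 FPKM with it (1.94 ± 0.04), and the fatty acid receptor Ppara changed by 1.51 ± 0.10. Those that fell were Pparg (-1.02 ± 0.11), Esrra (-0.67 ± 0.13), which overlaps Trmt112, and Gata4 (-0.58 ± 0.08). With per-chromosome centring 6 members were lower. Foxa2 was at 37.7 ± 3.304 and 36.5 ± 0.156 FPKM and did not pass.

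Drug-metabolizing genes held the largest single change on the log2(FPKM + 1) scale. Sult1a1 (chr7:126672865-126676432), a sulfotransferase for phenols, was at 0.412, 0.105 and 0.253 FPKM without and 119.6, 114 and 121 FPKM with the inhibitor. The change was 6.57 ± 0.10 (adjusted p = 1.66e-15, limma), and hepatocytes alone had 8.09 FPKM. Its exons overlap those of Sgf29. Of 30 tested conjugation enzymes, 21 rose and 6 fell (median 0.84), and paralogs of these families can share reads. Of 16 tested cytochrome P450 genes, 13 rose and 2 fell (median 1.15), and 23 further members were below the filter. Cyp2s1 was at 0.666, 0.694 and 0.522 FPKM without and 8.99, 8.51 and 8.33 FPKM with the inhibitor (2.56 ± 0.09). Cyp3a11, a main drug oxidase of mouse liver, was at 0, 0 and 0.00937 FPKM without and 2.18, 2.33 and 2.302 FPKM with it. The sterol hydroxylase Cyp27a1 fell by 0.41 on the log2 scale.

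Lipid genes were mixed and more often higher. Of 31 tested genes of fatty acid oxidation and ketogenesis, 21 rose and 3 fell (median 0.34). Pdk4, which restrains pyruvate oxidation, changed by 2.83 ± 0.09. The thioesterase Acot2 fell from 23.8, 23.6 and 23.7 FPKM to 6.81, 8.25 and 8.41 FPKM (-1.49 ± 0.08). Of 25 tested lipogenesis and storage genes, 14 rose and 5 fell, with rises of the phosphatidate phosphatase Lpin2 (2.40 ± 0.05), the sugar-sensing factor Mlxipl (2.31 ± 0.06) and the desaturase Fads2 (1.90 ± 0.05). Fasn, fatty acid synthase, fell by 0.34 on the log2 scale, a call lost after per-chromosome centring (adjusted p = 0.632, limma). Of 28 tested genes of cholesterol synthesis and uptake, 18 rose and 1 fell (median 0.32). The sterol carrier Stard4 changed by 1.43 ± 0.05. Of 11 tested bile acid genes 5 rose and 4 fell (45.5% higher and 36.4% lower, against 33.5% and 33.0% of all tested genes), with Acox2, a peroxisomal side-chain oxidase, falling from 98.99, 115 and 115 FPKM to 21.04, 20.6 and 18.8 FPKM (-2.38 ± 0.06). Of 8 tested genes of cholesterol esterification and export, 4 rose and 2 fell (50% higher and 25% lower). Those that rose included the exporter Abca1 (1.08 ± 0.09), and those that fell the acyltransferase Soat1 (-1.18 ± 0.06).

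Glycolytic and hypoxia-inducible genes rose in 28 of 34 tested members and fell in 2, with a median of 1.23. Adm, the vasodilator adrenomedullin, was at 0.844, 0.8796 and 1.15 FPKM without and 32.5, 33.00 and 29.9 FPKM with the inhibitor (4.07 ± 0.13). Egln3, a prolyl hydroxylase that marks HIF-alpha for destruction, was at 0.676, 0.733 and 0.807 FPKM without and 19.4, 19.8 and 19.1 FPKM with it (3.55 ± 0.08). Bnip3, a mitophagy receptor, was at 13.9, 11.3 and 12.5 FPKM without and 106, 90.05 and 104 FPKM with it (2.89 ± 0.08). None of these overlapped between groups. The members that fell were Hif1a itself (-0.64 ± 0.09) and Pfkm (-0.22 ± 0.05), which overlaps Senp1. Vegfa, a classic hypoxia target, was at 40.7 ± 2.75 and 37.3 ± 1.64 FPKM and did not pass (adjusted p = 0.0855, limma). Of 18 tested genes of gluconeogenesis, fructose and glycogen, 12 rose and 5 fell, and 3 fell with per-chromosome centring. The glucose transporter Slc2a2 rose from 3.26 to 28.2 FPKM (2.78 ± 0.06) and the glucokinase regulator Gckr by 2.73 ± 0.06.

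Serine synthesis genes were lower in the libraries with the inhibitor. Phgdh was at 199, 206 and 195 FPKM without and 158, 155 and 160.2 FPKM with it. The fall was small and lay outside the spread of the libraries (-0.34 ± 0.04, adjusted p = 9.77e-07, limma). Psat1, the aminotransferase of the next step, was at 142, 123 and 123 FPKM without and 78.96, 74.7 and 75.4 FPKM with the inhibitor (-0.75 ± 0.05). Psph, the final phosphatase, was at 24.6, 25.2 and 26.9 FPKM without and 10.9, 10.3 and 10.1 FPKM with it (-1.21 ± 0.06), and its exons overlap Cct6a. The mitochondrial Shmt2, which turns serine into glycine, was at 74.9, 80.3 and 77.3 FPKM without and 42.6, 46.6 and 44.2 FPKM with it (-0.79 ± 0.07). The cytosolic Shmt1, which overlaps Smcr8, was at 15.9, 16.5 and 16.3 FPKM without and 17.9, 17.98 and 17.4 FPKM with the inhibitor and did not pass (adjusted p = 0.106, limma). Shmt1 did pass as higher after per-chromosome centring, with the plain fragment total and with scaling without mitochondrial and top 50 genes. In the whole list of 12 tested members 7 fell and 2 rose (median -0.33). Those that rose belong to the glycine cleavage system, namely Gldc from 31.1, 35.1 and 33.1 FPKM to 120.5, 128 and 124 FPKM (1.88 ± 0.05) and Amt (1.14 ± 0.13). With per-chromosome centring 5 members of the list fell and 3 rose, Shmt1 among those that rose.

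Of 17 tested folate enzymes 7 fell and 5 rose (29.4% higher and 41.2% lower), near the shares of all tested genes (33.5% and 33.0%), and without WT replicate 1 5 fell. Mthfd2, a mitochondrial one-carbon enzyme, was at 71.05, 66.7 and 69.8 FPKM without and 29.9, 29.4 and 29.6 FPKM with the inhibitor (-1.20 ± 0.04). The mitochondrial Aldh1l2 fell by 0.85 on the log2 scale, and the cytosolic Aldh1l1 changed by 0.92 ± 0.06. Of 14 tested methionine cycle and transsulfuration genes, 9 rose and 5 fell (64.3% higher and 35.7% lower). Gnmt changed by 2.13 ± 0.17, Cbs by 1.61 ± 0.07 and Cth by -0.47 ± 0.05. Amino acid transporters fell in 14 of 22 tested members and rose in 7 (median -0.44). Slc7a3, a carrier of arginine and lysine, was at 9.98, 9.69 and 9.32 FPKM without and 0.827, 0.864 and 0.668 FPKM with the inhibitor (-2.58 ± 0.10). Slc3a2, the shared heavy chain of several carriers, fell from 580.0 ± 60.95 to 204 ± 6.697 FPKM (-1.50 ± 0.06). Slc7a2, another carrier of arginine and lysine, was at 0.401, 0.318 and 0.313 FPKM without and 11.8, 11.7 and 12.7 FPKM with the inhibitor (3.28 ± 0.07). These related carriers thus moved in opposite directions.

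Genes of the endoplasmic reticulum (ER) were almost all lower. Of 36 tested chaperone, unfolded protein response and ER-associated degradation genes, 34 fell and none rose, with a median of -0.81, and 11 fell at least 2-fold. Hyou1, a large ER chaperone, was at 139.5, 145 and 141 FPKM without and 61.4, 63.7 and 62.4 FPKM with the inhibitor (-1.17 ± 0.04, adjusted p = 2.16e-12, limma). Pdia4, a disulfide isomerase, was at 632, 602 and 609 FPKM without and 275, 270.2 and 277 FPKM with it (-1.16 ± 0.03). Hspa5 (BiP), the main ER chaperone, was at 1245, 1118 and 1150 FPKM without and 575, 563 and 574 FPKM with it (-1.03 ± 0.04). In these genes the inhibitor group lay under co-culture and still above hepatocytes alone, which had 24.5, 160.5 and 236 FPKM. Hspa5, Calr (-0.84 ± 0.04) and Creld2 (-1.07 ± 0.10) were named after their values were seen. Manf fell by 1.16 on the log2 scale, with exons that overlap Dcaf1 and Rbm15b. The vesicle coat genes Sec23b (14.6 ± 2.19 and 13.9 ± 0.595 FPKM) and Sec24d (5.304 ± 0.612 and 5.34 ± 0.161 FPKM) did not pass. With per-chromosome centring 35 members were lower and without WT replicate 1 34.

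The promoters of Hspa5, Calr and Creld2 are printed because their windows hold the ER stress response element. The 250 bases before the RefSeq start (GRCm38.p6) come from chr2:34771840-34772089 (plus strand), chr8:84846932-84847181 (minus strand) and chr15:88819396-88819645 (plus strand). Capitals mark a match to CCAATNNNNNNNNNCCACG on either strand.
Hspa5: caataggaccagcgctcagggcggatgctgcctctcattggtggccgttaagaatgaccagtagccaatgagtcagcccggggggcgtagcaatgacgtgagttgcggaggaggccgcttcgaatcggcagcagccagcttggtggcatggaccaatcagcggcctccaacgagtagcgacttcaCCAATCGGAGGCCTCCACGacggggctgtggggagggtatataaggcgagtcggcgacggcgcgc
Calr: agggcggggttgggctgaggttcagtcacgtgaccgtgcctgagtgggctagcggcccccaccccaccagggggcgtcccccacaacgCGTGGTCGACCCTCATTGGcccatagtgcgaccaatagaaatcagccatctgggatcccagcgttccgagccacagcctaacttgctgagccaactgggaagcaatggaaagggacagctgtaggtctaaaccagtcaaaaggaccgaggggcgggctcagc
Creld2: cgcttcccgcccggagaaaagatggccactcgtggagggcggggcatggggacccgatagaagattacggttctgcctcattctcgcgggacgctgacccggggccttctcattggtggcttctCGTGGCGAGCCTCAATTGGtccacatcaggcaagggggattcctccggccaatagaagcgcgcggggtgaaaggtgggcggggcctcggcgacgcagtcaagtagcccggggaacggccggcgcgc
The motif was in 9 of 32 members with a window (28.1%) and in 0.137% of 27025 genes. The list was assembled from known genes of this response, some of them known for this element.

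Related stress programmes moved less uniformly. Of 28 tested genes of the integrated stress response, 17 fell and 5 rose (median -0.41). Stc2, a secreted glycoprotein, was at 19.8, 21.5 and 20.5 FPKM without and 5.29, 6.098 and 6.02 FPKM with the inhibitor (-1.67 ± 0.08), and Ppp1r15a (GADD34), which ends the response, fell by 1.60 on the log2 scale. Ddit4 (1.94 ± 0.11) and the interferon-induced kinase Eif2ak2 (1.72 ± 0.06) rose. Aminoacyl-tRNA synthetases fell in 13 of 20 members and rose in 1. Wars was at 90.02, 86.8 and 87.6 FPKM without and 35.1, 34.2 and 33.98 FPKM with the inhibitor (-1.33 ± 0.04), and Vars was the member that rose (0.67 ± 0.03). Heat shock genes rose in 13 of 25 and fell in 5. The inducible Hsp70 gene Hspa1b was at 0.354, 0.489 and 0.562 FPKM without and 41.3, 49.9 and 44.4 FPKM with the inhibitor (4.97 ± 0.10). Its near-identical copy Hspa1a changed by 3.59 ± 0.11, and reads of the pair cannot be fully separated. The small heat shock protein gene Cryab changed by 2.53 ± 0.07, and the mitochondrial Hspe1, which overlaps Hspd1, by -0.57 ± 0.10. Of 27 tested NRF2 genes 19 rose and 3 fell, with Gsta4 at 1.35 ± 0.07, Gclc at 1.24 ± 0.06 and the cystine carrier Slc7a11 at -1.09 ± 0.06. Hmox1, a common NRF2 target, was at 32.2 ± 4.72 and 30.7 ± 2.26 FPKM and did not pass.

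Cell division genes were higher. Of 38 tested mitosis and spindle genes 38 rose, 37 of them at least 2-fold, with a median of 1.86. Mki67, a proliferation antigen, was at 0.667, 0.718 and 0.773 FPKM without and 15.2, 14.4 and 15.1 FPKM with the inhibitor (3.21 ± 0.05, adjusted p = 2.44e-15, limma). Ccnb2, a mitotic cyclin, was at 1.34, 1.27 and 1.75 FPKM without and 18.1, 14.2 and 16.4 FPKM with it (2.81 ± 0.10). Hepatocytes alone were above both groups, at 21.6 FPKM for Mki67 and 33.9 FPKM for Ccnb2. The mitotic kinase Plk1 changed by 2.73 ± 0.10. Of 38 DNA replication genes 30 rose and 1 fell (median 0.67). Rrm2, a subunit of ribonucleotide reductase, was at 1.46, 1.64 and 1.55 FPKM without and 10.6, 12.01 and 10.03 FPKM with the inhibitor (2.22 ± 0.07). Mcm7, a subunit of the replicative helicase, fell by 0.30 on the log2 scale, with exons that overlap Ap4m1 and Cops6. Of 21 tested G1 cyclins and CDK inhibitors 13 rose and 6 fell. Cdkn2a, which encodes p16 and p19ARF, was at 21.6, 29.6 and 26.9 FPKM without and 2.96, 3.25 and 4.09 FPKM with the inhibitor (-2.61 ± 0.14). Its neighbour Cdkn2b (p15) was at 48.3, 60.5 and 54.8 FPKM without and 21.1, 21.6 and 19.7 FPKM with it (-1.34 ± 0.07). Both lie on chromosome 4, whose median difference was positive, but that median does not describe a single locus. The cause of these falls was not tested. Of 29 p53 target genes 14 fell and 7 rose (24.1% higher and 48.3% lower, against 33.5% and 33.0% of all tested genes). Among them were Gadd45b at 2.20 ± 0.12, Pmaip1 at 1.10 ± 0.07 and Sesn2 at -0.79 ± 0.05. With per-chromosome centring 10 p53 targets were lower and 7 higher.

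Immediate early genes, which respond within minutes to growth factors and stress, split by member. Of 25 tested, 12 rose and 8 fell (median 0.02), or 48% higher and 32% lower against 33.5% and 33.0% of all tested genes. With per-chromosome centring 9 rose and 8 fell. Fos (chr12:85473890-85477273), a subunit of AP-1, had the largest fall of coding genes on the log2(FPKM + 1) scale, from 28.3, 30.1 and 31.8 FPKM to 1.64, 1.82 and 1.82 FPKM (-3.49 ± 0.09, adjusted p = 1.22e-13, limma). With a pseudocount of 0.1 its value was -4.02, and those of Gfra1 (-4.89), Evl (-4.715), Fosb (-4.52), Dbn1 (-4.496), Cacna1h (-4.33) and Htra1 (-4.31) were lower. Hepatocytes alone had 93.4 FPKM of Fos. Fosb was at 3.46, 4.88 and 3.97 FPKM without and 0.0638, 0.143 and 0.0519 FPKM with the inhibitor (-2.23 ± 0.09), and Atf3 was at 35.3, 32.9 and 31.6 FPKM without and 11.1, 9.33 and 9.17 FPKM with it (-1.66 ± 0.06). Fosl1 (Fra-1), another partner of Jun, rose from 25.2, 29.5 and 27.2 FPKM to 114, 124 and 116 FPKM (2.07 ± 0.06), with exons that overlap Ccdc85b. Myc was at 88.1 ± 1.91 FPKM without and 89.5 ± 2.498 FPKM with the inhibitor and did not pass (adjusted p = 0.551, limma). MAPK feedback genes rose in 11 of 27 and fell in 10 (40.7% higher and 37% lower), near the 33.5% and 33.0% of all tested genes. Dusp1, a phosphatase that switches off MAP kinases, was at 4.72, 4.303 and 4.37 FPKM without and 33.6, 38.1 and 36.1 FPKM with the inhibitor (2.75 ± 0.06), and overlaps Ergic1. The EGF receptor ligand genes Btc (-2.07 ± 0.08), Areg (-1.84 ± 0.08) and Ereg (-1.75 ± 0.08) fell, and Ereg overlaps Gm19610. All lie close together on chromosome 5.

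Whether the response differed with the genotype of the cancer cells was tested as the difference of the inhibitor effects. Of 11395 genes 93 passed (0.816%), 32 with a larger value in WT (0.281%) and 61 with a smaller one (0.535%). Leaving out 1 library gave 31 to 120 genes, with 31 without KO replicate 1 and 120 without WT replicate 1. Across genes the effects in WT and KO co-culture, which share no libraries, had a Pearson r of 0.962. It is a description, since genes are not independent and both effects carry the offsets between chromosomes. Of 25 immediate early genes 9 differed. Egr1, a growth factor-induced factor, fell from 71.3, 72.8 and 72.1 FPKM to 44.9, 43.02 and 45.98 FPKM in WT co-culture, and KO means were 38.3 FPKM without and 54.98 FPKM with the inhibitor. Its difference of effects was -1.19 ± 0.05 (adjusted p = 4.92e-09, limma). Atf3, Egr1 and Jun kept this call in each of 25 alternatives (all but the test against a 1.5-fold change), and Fosb lost it in 1, voom on the recovered fragments. Differences for Atf3 (-1.22 ± 0.08), Fosb (-1.22 ± 0.12), Jun (-0.93 ± 0.07) and Fos (-0.89 ± 0.12) had the same sign. Ccl2 rose further in WT than in KO co-culture by 0.66 ± 0.06, where KO means were 16.1 and 299 FPKM. Among ER genes 1 passed, Pdia4 (-0.21 ± 0.04, adjusted p = 0.038, limma). For Cxcl1 the difference was -0.36 ± 0.14 (adjusted p = 0.346, limma). For Phgdh the difference was 0.03 ± 0.05 (adjusted p = 0.895, limma) and for Alb -0.27 ± 0.08 (adjusted p = 0.152, limma), which does not show that the effects were equal.

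**Figure D4:**
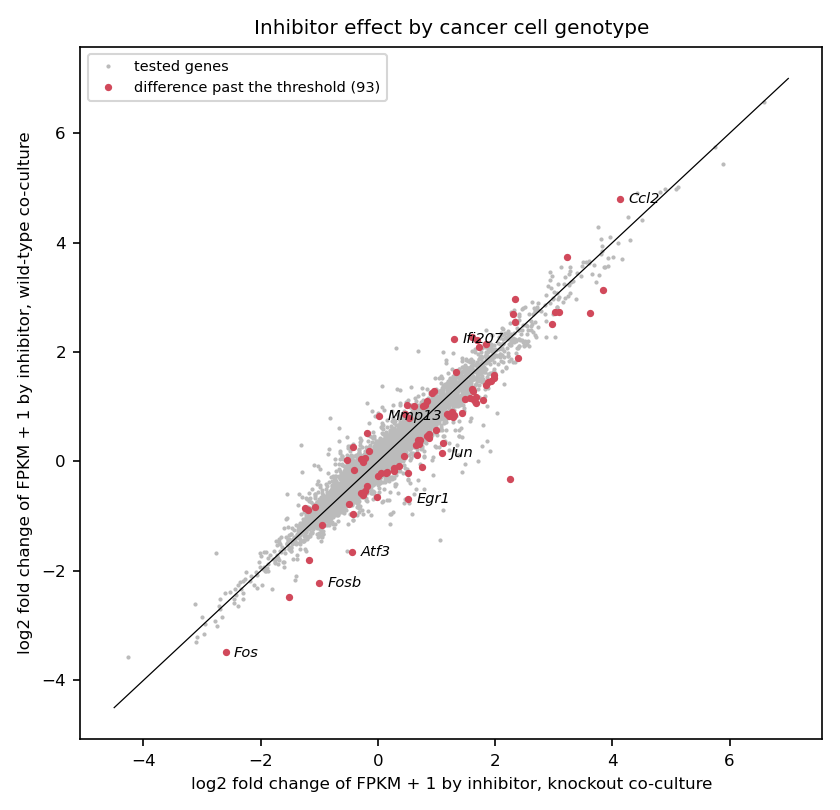
Log2 fold change of FPKM + 1 by the inhibitor in WT against KO co-culture, with 1 point per tested gene and a line of equal effects. Red points are the 93 genes whose effects differed past the threshold, among them Fos, Fosb, Atf3, Egr1 and Ccl2.

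Most genes of actin and cell junctions rose. Of 27 tested actin and contractility genes, 24 rose and 2 fell (median 1.03). Actg1, cytoplasmic gamma-actin, was at 208, 180.3 and 173 FPKM without and 731, 673 and 727 FPKM with the inhibitor (1.92 ± 0.07), and at 858 FPKM in hepatocytes alone. Cnn2, calponin 2, changed by 2.22 ± 0.08, and the GTPase Rhob fell by 1.23 on the log2 scale. Pfn1 fell by 0.33, a call lost after per-chromosome centring (adjusted p = 0.953, limma). Keratin, junction and epithelial genes rose in 21 of 22 tested members (median 1.26). Krt19, a keratin of bile ducts, was at 18.04, 25.99 and 21.9 FPKM without and 183, 206 and 191 FPKM with the inhibitor (3.09 ± 0.10). The claudin gene Cldn6 was at 0.758, 0.889 and 0.665 FPKM without and 19.1, 19.3 and 17.99 FPKM with it (3.48 ± 0.13). F11r, the member that fell (-0.12 ± 0.05), lost its call in 12 alternatives, per-chromosome centring among them. Of 26 matrix and integrin genes 18 rose and 5 fell, with fibronectin (Fn1) at 1.92 ± 0.03 and the laminin-binding integrin Itgb4 at -1.31 ± 0.06. Of 20 YAP and TEAD genes 11 rose and 6 fell (55% higher and 30% lower, against 33.5% and 33.0% of all tested genes). Ankrd1 changed by 2.73 ± 0.05, Cyr61 by 2.51 ± 0.05 and Tead2 by -2.52 ± 0.09. Of 21 TGF-beta genes 12 rose and 5 fell (57.1% higher and 23.8% lower). The receptor Tgfbr1 was at 16.2, 13.6 and 15.1 FPKM without and 93.5, 85.1 and 93.5 FPKM with the inhibitor (2.52 ± 0.07).

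Mitochondrially encoded and ribosomal protein transcripts were lower. Of 13 mitochondrially encoded genes 12 fell and none rose (median -1.12). The complex I subunit mt-Nd1 was at 5667, 4819 and 5127 FPKM without and 1820, 1698 and 1777 FPKM with the inhibitor (-1.56 ± 0.07), and mt-Nd2 was at 3474, 2483 and 2730 FPKM without and 881, 752 and 867 FPKM with it (-1.78 ± 0.11). Their ends overlap mt-Ti and mt-Tw, and WT replicate 1 had the highest level of both. Cytosolic ribosomal protein genes fell in 46 of 52 tested members and none rose (median -0.70). Rps12 was at 264, 324 and 277 FPKM without and 106, 136 and 109 FPKM with the inhibitor (-1.29 ± 0.13). Rps27a, on chromosome 11, varied more, at 376, 245 and 318 FPKM without and 48.1, 131 and 49.96 FPKM with it (-2.16 ± 0.45). Processed pseudogenes of ribosomal protein genes can share their reads. After per-chromosome centring 47 members were lower. Of 40 ribosome biogenesis genes 17 fell, 5 rose and 18 did not pass (12.5% higher and 42.5% lower). The nucleolar Npm1 changed by -0.86 ± 0.06. Nuclear-encoded respiratory chain genes were 21.6% higher and 41.2% lower (11 and 21 of 51), against 33.5% and 33.0% of all tested genes. The count of lower ones was 12 with per-chromosome centring and 27 without WT replicate 1, so no direction is read from this list. Proteasome genes rose in 14 of 32 and fell in 5 (43.8% higher and 15.6% lower), and 3 fell with centring. Their activator Nfe2l1 fell (-1.33 ± 0.06). Lysosome and autophagy genes fell in 23 of 40 and rose in 6, with the autophagy receptor Sqstm1 from 579.5, 624 and 614 FPKM to 274, 297 and 281 FPKM (-1.09 ± 0.04).

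Among the remaining lists, counts stand against 33.5% higher and 33.0% lower among all tested genes. Clock genes rose in 11 of 17 and fell in 2, with the repressors Bhlhe40 (2.44 ± 0.05) and Per1 (2.21 ± 0.08) higher. In STAT3 signalling 11 of 17 rose and 2 fell, with the kinase Pim1 from 1.804 to 25.1 FPKM (3.22 ± 0.09) and the feedback inhibitor Socs2 falling from 7.63 ± 0.342 to 1.17 ± 0.179 FPKM. Stat3 itself, which overlaps Stat5a, was at 15.9 ± 0.282 and 15.4 ± 0.343 FPKM and did not pass. Iron genes rose in 8 of 15 and fell in 5 (53.3% higher and 33.3% lower), and Cp, the ferroxidase ceruloplasmin, which overlaps Hps3, changed by 1.93 ± 0.06 and the iron exporter Slc40a1 by -1.33 ± 0.06. Insulin and IGF genes rose in 7 of 15 and fell in 5 (46.7% higher and 33.3% lower), with Igfbp1 at 2.34 ± 0.15. Biliary progenitor and Notch genes rose in 9 of 16 and fell in 4 (56.2% higher and 25% lower), with Notch1 at 1.10 ± 0.05, Notch3 at -1.38 ± 0.08 and the ligand Jag2 at -1.76 ± 0.10. Tubulin and microtubule genes rose in 12 of 27 and fell in 7 (44.4% higher and 25.9% lower), so that the share called was close to the 66.6% of all tested genes. Of 28 secretory granule and neural-type genes 5 were tested, 3 rose and 1 fell, the granule protein Ptprn (-1.79 ± 0.05).

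**Figure D5:**
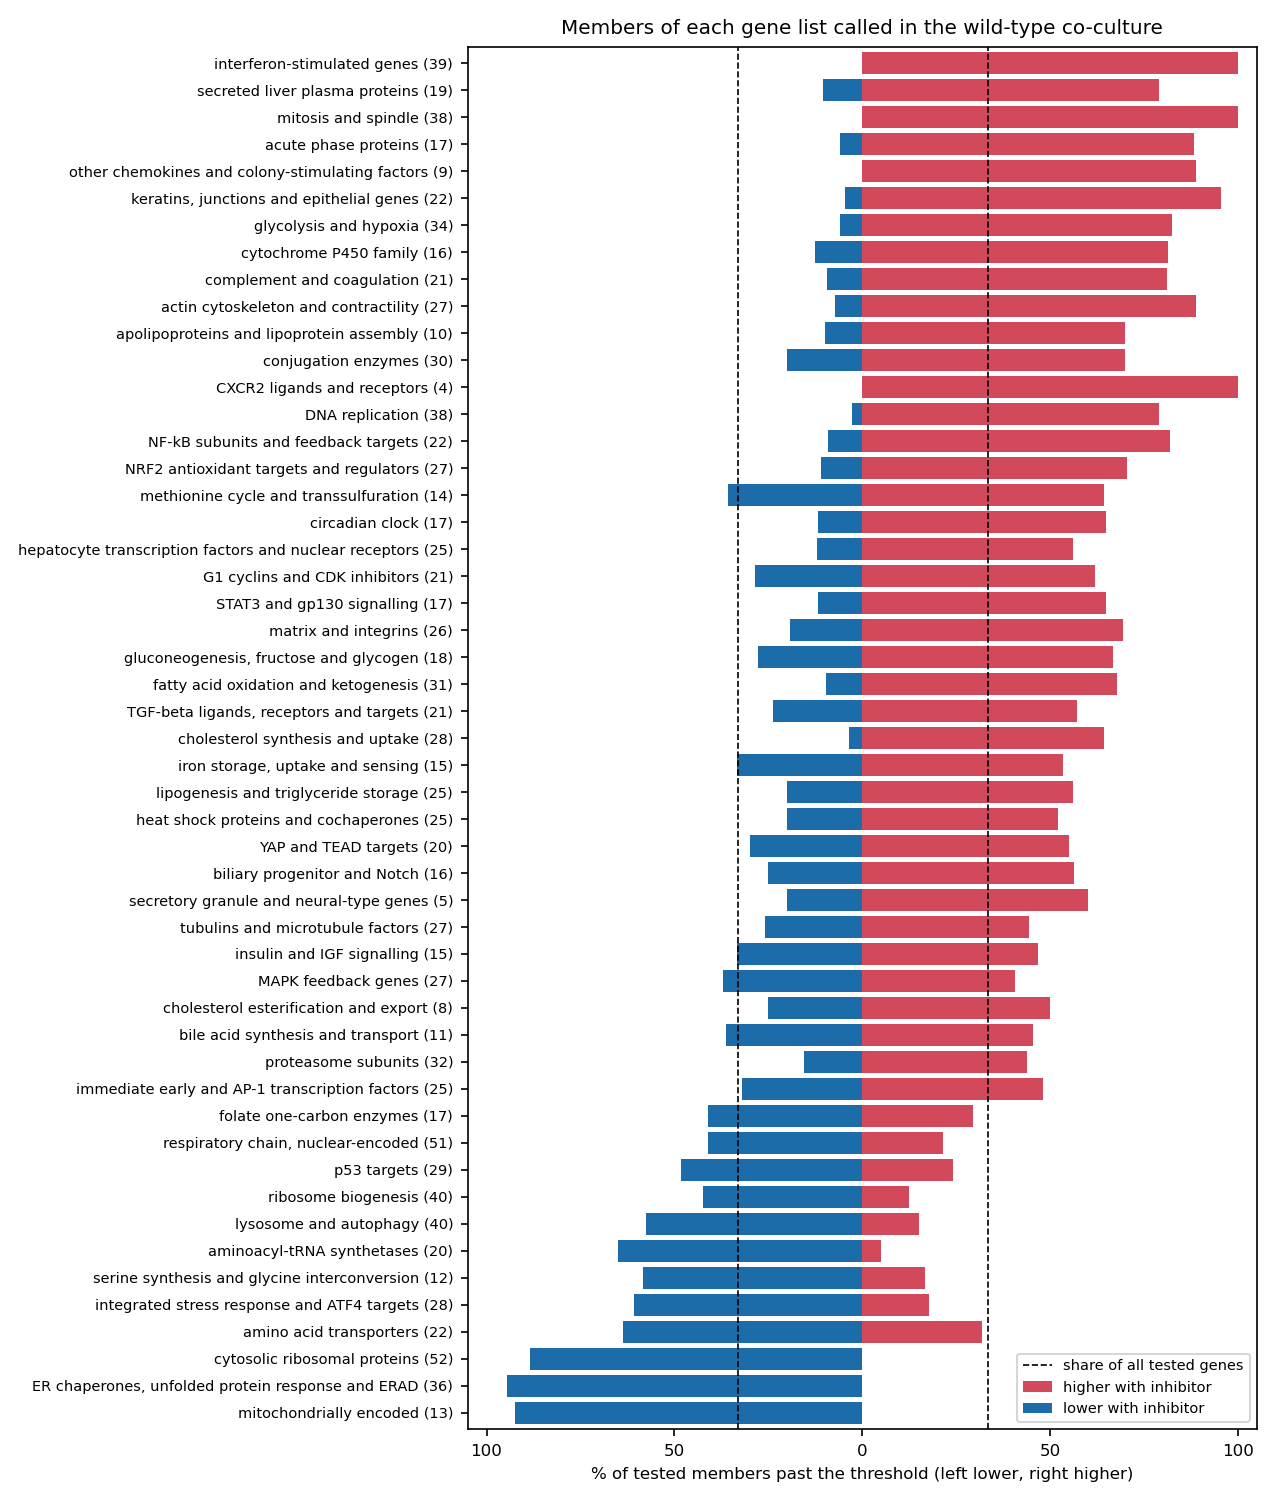
Share of tested members of each gene list (y axis) that were higher (red) or lower (blue) with the inhibitor, in percent (x axis). Dashed lines give the shares of all tested genes (33.5% higher, 33.0% lower). All tested interferon-stimulated and mitosis genes are higher, and mitochondrially encoded, ER and ribosomal protein genes are nearly all lower.

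The next largest falls of coding genes on the log2(FPKM + 1) scale were in genes of other functions. Htra1, a secreted serine protease, fell from 16.4, 15.1 and 15.8 FPKM to 0.711, 0.846 and 0.562 FPKM (-3.30 ± 0.08), and the actin regulator Evl from 9.74, 12.8 and 12.3 FPKM to 0.271, 0.586 and 0.242 FPKM (-3.21 ± 0.11). Bex1 was at 30.8, 56.8 and 55.96 FPKM without and 3.88, 5.16 and 3.93 FPKM with the inhibitor (-3.15 ± 0.19), with WT replicate 1 the lowest of its group. Gfra1, a receptor for GDNF, was at 8.34, 8.44 and 8.12 FPKM without and 0.218, 0.119 and 0.225 FPKM with it (-2.97 ± 0.06). Nkain1 (-3.00 ± 0.17), Podxl (-2.91 ± 0.06) and Dbn1 (-2.85 ± 0.06) had falls of similar size. Among non-coding genes, Gm6093 was listed at 0 in the 3 libraries without the inhibitor and at 32.8, 28.9 and 30.6 FPKM with it, where hepatocytes alone had 0.599 FPKM. Gm27605, a short non-coding RNA gene, fell with a wide error (-3.58 ± 0.51).

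Markers were used to check the labelled tissue. Of 15 hepatocyte markers, 12 were tested and 12 were higher with the inhibitor. Their summed level was 170.5 to 193.7 FPKM without and 864.5 to 882 FPKM with it, against 316 to 320.4 FPKM in hepatocytes alone. Cps1, a urea cycle enzyme of mature hepatocytes, was at 0.0783, 0.0855 and 0.129 FPKM without and 10.1, 10.8 and 11.1 FPKM with the inhibitor, so this marker was nearly absent without it. Asgr1, the hepatocyte receptor for desialylated glycoproteins, stayed near 0 in both groups, with means of 0.0874 and 0.125 FPKM. Of 20 markers of pancreatic cancer epithelium 5 were tested and 4 were higher, and the sum was at most 277.5 FPKM without and 648 to 694 FPKM with the inhibitor. Msln (196 and 406 FPKM) and Krt19 made up most of it, and hepatocytes alone had sums of 343 to 358 FPKM. Muc4, Tff1, Tff2, Agr2, Gkn1 and Ptf1a were at 0 in all 6 libraries. Cholangiocyte markers, which share Krt19, Krt7, Epcam, Sox9 and Cftr with that list, summed to 498 to 520.1 FPKM without and 689 to 705 FPKM with the inhibitor. Hepatocytes alone were above both, at 1414 to 1428 FPKM. Of 8 tested cholangiocyte markers 6 were higher with the inhibitor and 2 lower, Slc4a2 (-0.29 ± 0.05) and Spp1 (-0.29 ± 0.06). Macrophage markers summed to 1.18 to 1.51 FPKM without and 4.32 to 5.72 FPKM with it, mostly from Cd68 (1.34 ± 0.14), while Adgre1, Clec4f and 7 other members of 14 were at 0 throughout. Summed markers of stellate cells (5 of 14 at 0), endothelium (4 of 12), neutrophils (6 of 12) and lymphocytes (5 of 10) were at most 0.279, 1.54, 0.275 and 0.579 FPKM in the 6 libraries. The part of other cell types in the changes above was not tested.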

How the data were processed

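Total RNA came from RNeasy columns and Novogene prepared the libraries, per the labels' protocols. The submitters' processing notes name HISAT2 for alignment, and GRCm38 and mm10. Versions, counting tool, annotation and strand setting: not given in the sources used here, so antisense and overlapping genes cannot be told apart. The authors deposited FPKM for 54532 genes, 1 column per library, which were used as deposited. Multiplied by gene length they gave whole fragments (100% of values within 0.1), used for depth and for a voom alternative.

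Genes with a mean of at least 1 FPKM over the 16 libraries were taken as log2(FPKM + 1) to limma 3.58.1 (R 4.3.3), with 1 coefficient for each of the 5 groups, 11 residual degrees of freedom, an intensity trend and two-sided tests. P-values were adjusted by Benjamini-Hochberg over 11395 genes (threshold 0.05). The fit was tested on simulated data in which few genes changed and chromosomes had no offsets. That test does not cover changes as broad as those in these data. Alternatives changed the pseudocount, filter, scaling, libraries, block, fold tested against and chromosome centring. The comparison, the 51 gene lists, 8 marker lists and the rule for named genes were chosen with earlier results of these data known, and no list was tested as a set. The rule took a fixed set (both receptors, serine genes and Alb), the 12 largest rises and falls of coding genes whose libraries did not overlap, up to 3 rises and falls per list with members that did not pass, 5 differences between genotypes each way and 3 non-coding genes each way. Hspa5, Calr, Creld2 and Cxcl5 were named after their values were seen. Promoter windows came from RefSeq (GRCm38.p6).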

Additional observations from a re-analysis of the deposited data

Results flagged for a closer look

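The inhibitor effect differed between WT and KO co-culture, by a test of the difference itself, in 93 genes. Among coding genes the most negative differences (WT minus KO, log2 scale) were those of Atf3 (-1.22), Fosb (-1.22), Egr1 (-1.19), Il11 (-0.964) and Jun (-0.934), and the most positive those of Ifi207 (0.941), Mmp13 (0.816), Lmcd1 (0.697), Adcy9 (0.683) and Ccnb1 (0.679). The inhibitor effect on Atf3 was -1.66 ± 0.06 in WT and -0.44 ± 0.06 in KO co-culture, and that on Fosb -2.23 ± 0.09 and -1.01 ± 0.09. That on Egr1 was -0.68 ± 0.03 in WT and 0.51 ± 0.03 in KO co-culture, so that the signs were opposite. For Jun it was 0.16 ± 0.05 in WT and 1.10 ± 0.05 in KO co-culture, and its WT call was lost without WT replicate 1, without WT with inhibitor replicate 2, in the fit of the 6 libraries and after per-chromosome centring. Il11, a gp130 cytokine, was at 5.83, 7.87 and 6.47 FPKM without and 0.254, 0.354 and 0.547 FPKM with the inhibitor in WT co-culture (-2.48 ± 0.14, and -1.51 ± 0.13 in KO). The interferon-inducible Ifi207 had effects of 2.24 ± 0.11 and 1.29 ± 0.10, the collagenase Mmp13 of 0.83 ± 0.13 and 0.02 ± 0.12, Lmcd1 of 0.52 ± 0.10 and -0.18 ± 0.10, and the cyclin Ccnb1 of 2.28 ± 0.11 and 1.60 ± 0.10. Adcy9 had effects of 0.26 ± 0.10 and -0.42 ± 0.10, and its WT libraries overlapped between the groups. The WT call of Adcy9 was lost in 8 alternatives (adjusted p up to 0.620, limma), among them quantile normalization, the fit of the 6 libraries, 4 fits without 1 library and per-chromosome centring. The call of the difference was lost in 16 of 24 alternatives for Adcy9, 17 of 24 for Mmp13 (adjusted p = 0.449 with a pseudocount of 0.1, limma), 18 of 25 for Ccnb1, 15 of 25 for Il11, 12 of 25 for Lmcd1 and 1 of 24 for Fosb, and in none for Atf3, Egr1, Jun and Ifi207, leaving aside the test against a 1.5-fold change. Most of these losses came when 1 library was left out. These genes were selected for their difference, and no explanation was tested.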

How the results depend on the processing

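The inhibitor effect was called in 7117 to 7699 genes when 1 WT library was left out (3599 to 3878 higher, 3504 to 3821 lower). Of the 296 named genes that passed, 281 kept their call in every alternative that tested them, the test against a 1.5-fold change aside, and 47 of the 296 were not tested under the filter of 5 FPKM. That test left 1660 genes (1109 higher, 551 lower) and is stricter by construction. A filter of 5 FPKM tested fewer genes and left 2525 higher ones. Per-chromosome centring reversed Igfbp4 (0.098), Slc22a5 (0.13) and Jun (-0.042). The difference between genotypes was the less stable result. It was called in 55 genes with no filter (20 higher, 35 lower), 41 in the 13 co-culture libraries (12 and 29) and 2 against a 1.5-fold change (0 and 2, limma, with 3 higher at an unadjusted p under 0.05). Scaling without mitochondrial and top 50 genes gave 15 higher genes. Leaving out 1 library gave 31 to 120 genes (9 to 46 higher, 21 to 74 lower), and the extremes came without KO replicate 1 (31) and without WT replicate 1 (120). The causes were not tested. No pairing of the WT libraries by replicate number was seen, with r of 0.201, 0.127 and -0.179 between deviations of same-numbered libraries. Libraries with different numbers had r from -0.326 to 0.321, so these few values cannot exclude a pairing. With the replicate block 7573 genes were called, 7439 of them as before, and the difference between genotypes was called in 34 genes (11 higher, 23 lower). Quantile normalization moved the share of higher genes among the called from 50.4% to 43.8%. Other scalings moved it the other way. It was 53.1% with median-of-ratios scaling, 53.6% without mitochondrial and top 50 genes and 54.7% with the plain fragment total. Depth limits genes near 0, such as the receptors.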
